A study of Homo sapiens with 9 samples.

Results

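The NF-kB subunits and feedback inhibitors described here were 10 genes, all found as a single row in the deposited count and FPKM tables by gene symbol, out of 58735 rows with a symbol. They were NFKB1, NFKB2, REL, RELA, RELB, NFKBIA, NFKBIE, NFKBIZ, TNFAIP3 and BIRC3, and all 10 were among the 15242 genes that passed the filter on low counts. RNA-seq of total RNA was made from MDA-MB-231, an established human breast cancer cell line of mesenchymal character that lacks estrogen and progesterone receptors, with 6 libraries of genotype sgL1 and 3 of genotype sgCtrl. Both genotypes were held under hypoxia for 6 h, per the series title, and no normoxic libraries were analysed here. The study concerns UFMylation, the attachment of the ubiquitin-like protein UFM1 to other proteins, for which UFL1 is the ligase. Its design text speaks of knockout of UFL1 or UFM1 and its title of knockdown, and the labels do not spell out what sgL1 stands for. They name neither the guide sequence nor whether a line is 1 clone. The sgL1 libraries are shown as numbers 1-3 and 4-6, and the labels do not say whether anything but the number sets these apart.

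UFL1 itself had 15.2, 12.9 and 12.9 CPM (reads scaled to a common library size by TMM normalisation) in sgL1 1-3 and 22.9, 20.05 and 21.2 CPM in sgL1 4-6, against 27.4, 25.4 and 25.4 CPM in sgCtrl. All 6 sgL1 libraries lay below the sgCtrl libraries and sgL1 1-3 lay below sgL1 4-6. Over all 9 libraries the difference did not pass the test (log2 fold change -0.57 ± 0.20 SE, adjusted p = 0.126). With edgeR it was called without sgL1 4 (adjusted p = 0.0389) and with no expression filter (adjusted p = 2.63e-05). Against sgCtrl, UFL1 was lower in sgL1 1-3 (log2 fold change -0.93, adjusted p = 1.24e-08) and in sgL1 4-6 (-0.28, adjusted p = 0.0145). The call in sgL1 4-6 was lost with DESeq2 (adjusted p = 0.0783), with limma on log2(FPKM + 1) and log2(FPKM + 0.1) (adjusted p = 0.0892 and 0.0836), and without sgL1 5, sgL1 6 or sgCtrl 1 (adjusted p = 0.0816, 0.0527 and 0.0870). Transcript level need not follow the loss of the protein in edited cells, and UFL1 overlaps UFL1-AS1 on the other strand. Libraries held 15420073 to 17038409 counts on named genes. VIM, AXL and CD44, genes known to be high in this line, had at least 63.4 FPKM (reads per gene length and library size) in every library, and ESR1, PGR and CDH1 were under 0.1 FPKM in all, whereas EPCAM had 4.58 to 6.20 FPKM. Of 7 leukocyte markers, 2 (CD3E and MS4A1) had 0 counts in all libraries, and the 7 together summed to 3.79 to 5.26 CPM in sgL1 and 3.01 to 3.39 CPM in sgCtrl, a difference whose part in the results was not tested. CD14 had 20 to 40 counts per library and CSF1R 13 to 43, while PTPRC had at most 1, ITGAM at most 3 and LYZ at most 6. Of 3 fibroblast markers, 1 was at 0 throughout, and their sum did not exceed 0.124 CPM in sgL1 and 0.128 CPM in sgCtrl.

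NF-kB is a family of dimeric transcription factors. RELA, REL and RELB carry activation domains, while NFKB1 and NFKB2 encode the precursors p105 and p100, which are processed to p50 and p52. In resting cells IkB proteins hold the dimers in the cytoplasm until IkB kinase (IKK) marks them for degradation, and the freed dimers then switch on genes that include their own inhibitors. NFKBIA (IkB-alpha) and NFKBIE (IkB-epsilon) bind and retain the dimers, TNFAIP3 (A20) edits ubiquitin chains on the upstream signalling complexes, and BIRC3 (cIAP2) is a ubiquitin ligase of those complexes that also takes part in the turnover of the kinase NIK. NFKBIZ (IkB-zeta) is a nuclear IkB protein that can act as a co-activator at a subset of NF-kB targets, so its place among inhibitors is by family.

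The kappa-B consensus, the 10-base site that NF-kB dimers bind, was searched on both strands in RefSeq promoter windows of 300 bases (250 before and 50 after each start, GRCh38.p14). It was found in the windows of 7 of the 8 members that the promoter table matched, which were NFKB1, REL, NFKB2, NFKBIA, NFKBIZ, TNFAIP3 and BIRC3. Over all 27305 genes in the table, 13.3% had a match, and 11.3% of all 35116 windows did. RELA was the member without a match, and NFKBIE and RELB were not matched in the table. The 7 segments of 30 bases below are shown because each holds 1 or 2 of its gene's matches, in capitals, 5′ to 3′ on the gene's strand.
NFKB1 segment, chr4:102501300-102501329, plus strand: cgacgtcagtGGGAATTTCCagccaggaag
REL segment, chr2:60881517-60881546, plus strand: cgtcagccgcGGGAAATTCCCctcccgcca
NFKB2 segment, chr10:102394461-102394490, plus strand: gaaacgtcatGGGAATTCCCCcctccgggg
NFKBIA segment, chr14:35404811-35404840, minus strand: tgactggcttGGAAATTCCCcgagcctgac
NFKBIZ segment, chr3:101827757-101827786, plus strand: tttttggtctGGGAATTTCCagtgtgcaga
TNFAIP3 segment, chr6:137867188-137867217, plus strand: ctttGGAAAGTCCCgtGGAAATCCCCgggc
BIRC3 segment, chr11:102317275-102317304, plus strand: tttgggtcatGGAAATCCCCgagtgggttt
NFKB1 and NFKBIZ held the same 10 bases in capitals, and the segments of NFKB2 and REL each held a pair of matches that overlap by all but 1 base. The match shown began 49 bases before the start in NFKB1, 81 bases before it in NFKBIA, 199 in BIRC3 and 223 in NFKBIZ. TNFAIP3 held matches 67 and 55 bases before its start. These are matches of letters, and no binding was measured. A gene can have several starts, and the segments of NFKB2, REL and TNFAIP3 lie wholly or mostly within the gene as annotated in GENCODE release 29.

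Measured per length, the members ranged over more than an order of magnitude in level, and the order put an inhibitor on top and REL at the bottom. NFKBIA averaged 40.7 FPKM over the 9 libraries, with a range of 34.3 to 46.8, higher than 92.8% of the genes tested. NFKB2 followed at 23.7 FPKM (range 21.9 to 27.0), and RELA at 19.9 (18.4 to 21.2), NFKB1 at 19.4 (18.8 to 20.6) and BIRC3 at 19.2 (16.6 to 23.3) came next with overlapping ranges. RELA was above NFKB1 in 6 of 9 libraries, so these neighbours do not differ beyond their spread. The place of BIRC3 depended on genotype: NFKB1 was above BIRC3 in 5 of 6 sgL1 libraries, while in all 3 sgCtrl libraries BIRC3, at 20.7 to 23.3 FPKM, was above NFKB1 (19.2 to 20.2 FPKM) and RELA (19.0 to 19.8 FPKM). NFKBIE had 13.9 FPKM (12.2 to 15.7), while RELB and TNFAIP3 both averaged 10.6 FPKM and overlapped, with RELB above in 4 of 9 libraries. NFKBIZ had 7.11 FPKM (4.57 to 9.09) and REL had 0.899 FPKM (0.658 to 0.995), above 21.8% of the genes tested. The remaining neighbours did not overlap. REL, best known from lymphoid cells, also rested on the fewest reads, 137 to 223 per library, a counting error of 8.54% at the lowest, whereas BIRC3 had 2058 to 2818 reads, an error of 2.20% at the lowest.

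**Figure D1:**
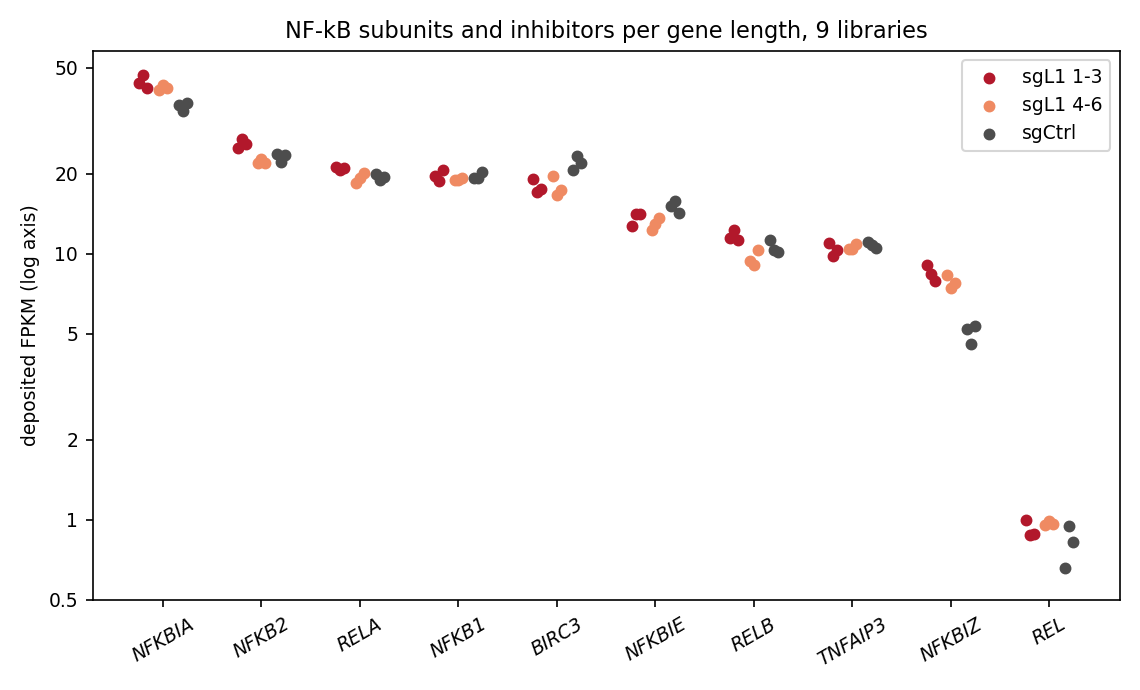
Levels of the 10 genes in FPKM on a log axis, 1 point per library, with sgL1 1-3, sgL1 4-6 and sgCtrl as separate marks. NFKBIA is highest at a mean of 40.7 FPKM and REL lowest at 0.899 FPKM.

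Between genotypes, 3 of the 10 genes changed in sgL1 against sgCtrl and 7 did not pass the test. NFKBIZ and NFKBIA rose and BIRC3 fell, by edgeR's quasi-likelihood test with Benjamini-Hochberg adjustment over all tested genes. Across all tested genes 5.52% were called higher and 3.98% lower. The median log2 fold change of the 10 genes was 0.03, and that of all tested genes 0.002. The sgL1 and sgCtrl libraries did not overlap for 4 of the 10 genes, with NFKBIZ and NFKBIA above and BIRC3 and NFKBIE below in sgL1, where 7.61% of all tested genes lay above and 6.40% below in this way. Bulk RNA cannot tell a change in RNA per cell from a change in the share of cells that make it. Nothing in the labels marks the libraries of a genotype as separate cultures, and the spread behind each p-value may therefore be technical.

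**Figure D2:**
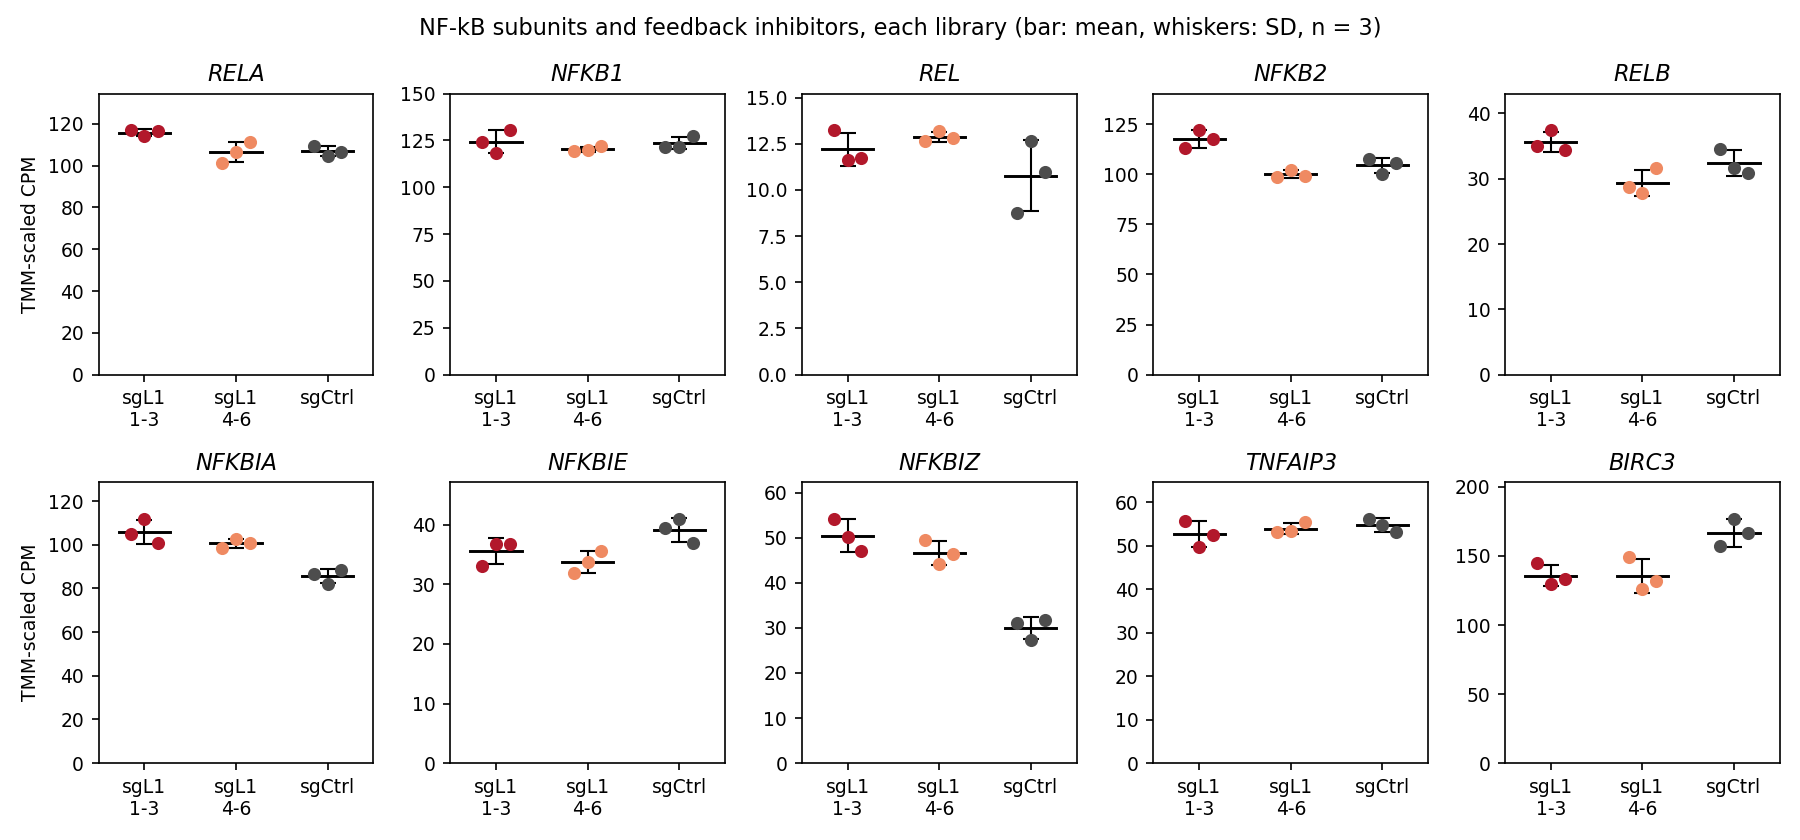
CPM of each of the 10 genes in every library, 1 panel per gene, with sgL1 1-3, sgL1 4-6 and sgCtrl from left to right a bar for the mean of each set of 3 and whiskers for its SD. NFKBIZ and NFKBIA lie above and BIRC3 below sgCtrl in all 6 sgL1 libraries.

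The 5 subunits, given with their GENCODE positions on GRCh38, were called in neither direction when the 6 sgL1 libraries were set against sgCtrl. RELA (ENSG00000173039, chr11:65653596-65663094, minus strand), the main activating subunit of the canonical pathway, had 117, 114 and 116 CPM in sgL1 1-3 and 101, 107 and 111 CPM in sgL1 4-6, against 109.5, 105 and 107 CPM in sgCtrl. The groups overlapped, and the log2 fold change was 0.05 ± 0.05 (SE, adjusted p = 0.590). NFKB1 (ENSG00000109320, chr4:102501329-102617302, plus strand), the source of p50, averaged 122 ± 4.46 CPM in sgL1 (SD, n = 6) and 124 ± 3.32 CPM in sgCtrl (SD, n = 3), with overlapping libraries. Its log2 fold change was -0.01 ± 0.04 (SE, adjusted p = 0.901). REL (ENSG00000162924, chr2:60881521-60931610, plus strand) was the least precise of the subunits, with 13.2, 11.6 and 11.7 CPM in sgL1 1-3 and 12.7, 13.2 and 12.8 CPM in sgL1 4-6, against 8.75, 12.6 and 10.95 CPM in sgCtrl. The groups overlapped, with sgCtrl 1 the lowest library, and the log2 fold change of 0.22 ± 0.11 (SE) did not pass the test (adjusted p = 0.242). Exons of RELA overlap AP001362.2 on the other strand, and the sources used here do not say whether strand was used in counting. Those of REL overlap AC010733.2 on the same strand, where strand could not separate the reads. Part of the reads of RELA and REL may therefore belong to these neighbours.

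NFKB2 and RELB form the p52 and RELB dimer of the non-canonical pathway, in which NIK drives the processing of p100. NFKB2 (ENSG00000077150, chr10:102394110-102402529, plus strand) had 113, 122 and 117 CPM in sgL1 1-3 and 98.9, 102 and 99.3 CPM in sgL1 4-6, against 108, 100.2 and 106 CPM in sgCtrl. Every sgL1 1-3 library lay above all libraries of the other groups, which overlapped each other. RELB (ENSG00000104856, chr19:45001430-45038198, plus strand) had 35.0, 37.4 and 34.5 CPM in sgL1 1-3 and 28.7, 27.9 and 31.6 CPM in sgL1 4-6, against 34.6, 31.6 and 30.9 CPM in sgCtrl. Its sgCtrl libraries lay between and overlapped both sets of sgL1 libraries. Over all 6 sgL1 libraries the log2 fold changes were 0.06 ± 0.06 for NFKB2 (SE, adjusted p = 0.654) and 0.01 ± 0.08 for RELB (SE, adjusted p = 0.984).

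The make-up of the subunit transcripts is given as shares, with no test. As a share of the summed FPKM of the 5 subunits, NFKB2 made up 32.0% ± 1.22 in sgL1 and 31.4% ± 0.476 in sgCtrl, and RELA 26.8% ± 0.632 in sgL1 and 26.4% ± 0.181 in sgCtrl (SD, n = 6 and n = 3). NFKB1 took 25.8% ± 1.32 in sgL1 and 26.7% ± 0.840 in sgCtrl, RELB 14.1% ± 0.887 in sgL1 and 14.4% ± 0.701 in sgCtrl, and REL 1.26% ± 0.130 in sgL1 and 1.11% ± 0.223 in sgCtrl. The ranges of the 2 genotypes overlapped for all 5 shares. Between the sets of sgL1 libraries 3 shares did not overlap. In CPM, 12.6% of all tested genes had every sgL1 1-3 library above sgL1 4-6 and 11.9% below. NFKB2 took 31.9% to 33.9% in sgL1 1-3 and 30.2% to 31.8% in sgL1 4-6. NFKB1 took 23.6% to 25.9% in sgL1 1-3 and 26.5% to 27.2% in sgL1 4-6. REL took 1.10% to 1.27% in sgL1 1-3 and 1.324% to 1.397% in sgL1 4-6. Shares of the same sum depend on each other, and in CPM the libraries of NFKB1 and REL overlapped between the sets.

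NFKBIZ (ENSG00000144802, chr3:101827991-101861022, plus strand) had the largest fold change of the 10 genes. It had 54.2, 50.1 and 47.1 CPM in sgL1 1-3 and 49.5, 44.2 and 46.4 CPM in sgL1 4-6, against 31.0, 27.3 and 31.7 CPM in sgCtrl. The lowest sgL1 library was above the highest sgCtrl library. The rise was 1.62-fold, a log2 fold change of 0.70 ± 0.07 (SE, adjusted p = 5.09e-08). Another window of NFKBIZ, not printed here, holds a kappa-B match 239 bases before a different start. The promoter window below, shown because this gene changed most, holds a single match, near the upstream end.
NFKBIZ promoter, chr3:101827740-101827989, plus strand: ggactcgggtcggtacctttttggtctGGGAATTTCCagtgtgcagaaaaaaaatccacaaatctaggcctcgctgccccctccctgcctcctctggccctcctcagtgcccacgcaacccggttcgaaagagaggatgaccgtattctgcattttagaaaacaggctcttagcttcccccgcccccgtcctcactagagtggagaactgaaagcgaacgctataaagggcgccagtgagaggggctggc

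NFKBIA (ENSG00000100906, chr14:35401511-35404749, minus strand), the classical feedback inhibitor, had 105, 112 and 101 CPM in sgL1 1-3 and 98.5, 103 and 101 CPM in sgL1 4-6, against 86.7, 82.3 and 88.3 CPM in sgCtrl. No sgL1 library reached down to the sgCtrl range. The rise was 20.5%, a log2 fold change of 0.27 ± 0.05 (SE, adjusted p = 0.000365). Its promoter, shown beside that of NFKBIZ as the other gene that rose, holds a single match nearer the start.
NFKBIA promoter, chr14:35404750-35404999, minus strand: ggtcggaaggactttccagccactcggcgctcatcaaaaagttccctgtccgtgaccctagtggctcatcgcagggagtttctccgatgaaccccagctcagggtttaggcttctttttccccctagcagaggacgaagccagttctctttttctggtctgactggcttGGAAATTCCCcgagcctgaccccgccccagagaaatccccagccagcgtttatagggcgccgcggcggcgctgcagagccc

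BIRC3 (ENSG00000023445, chr11:102317450-102339403, plus strand) went the other way. It had 145, 129.8 and 133 CPM in sgL1 1-3 and 149, 126 and 132 CPM in sgL1 4-6, against 157, 177 and 166 CPM in sgCtrl. The highest sgL1 library was below the lowest sgCtrl library. The log2 fold change was -0.30 ± 0.05 (SE, adjusted p = 0.000190), or 0.813-fold. The promoter of this gene that fell also holds the consensus, at 2 places, and the 216 bases printed stop where the annotated exon begins.
BIRC3 promoter, chr11:102317234-102317449, plus strand: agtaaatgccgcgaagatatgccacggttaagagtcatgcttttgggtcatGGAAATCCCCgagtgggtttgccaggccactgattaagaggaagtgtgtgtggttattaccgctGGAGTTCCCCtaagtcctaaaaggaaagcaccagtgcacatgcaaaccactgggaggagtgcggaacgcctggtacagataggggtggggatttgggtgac
Genes with a match in the window thus included genes that rose (NFKBIZ and NFKBIA), one that fell (BIRC3) and genes not called (NFKB1, NFKB2, REL and TNFAIP3).

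NFKBIE and TNFAIP3 did not pass the test over all sgL1 libraries. NFKBIE (ENSG00000146232, chr6:44258166-44265788, minus strand) had 33.1, 36.8 and 36.8 CPM in sgL1 1-3 and 31.9, 33.7 and 35.5 CPM in sgL1 4-6, against 39.4, 41.0 and 37.0 CPM in sgCtrl. All sgL1 libraries lay below sgCtrl, yet the log2 fold change of -0.18 ± 0.07 (SE) had an adjusted p of 0.111. TNFAIP3 (ENSG00000118503, chr6:137867188-137883312, plus strand) had 55.9, 49.8 and 52.6 CPM in sgL1 1-3 and 53.1, 53.3 and 55.4 CPM in sgL1 4-6, against 56.3, 54.9 and 53.2 CPM in sgCtrl. The groups overlapped and the log2 fold change was -0.04 ± 0.05 (SE, adjusted p = 0.761). An exon of TNFAIP3 overlaps AL357060.1 on the other strand, and the reads of the 2 cannot be told apart without strand.

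**Figure D3:**
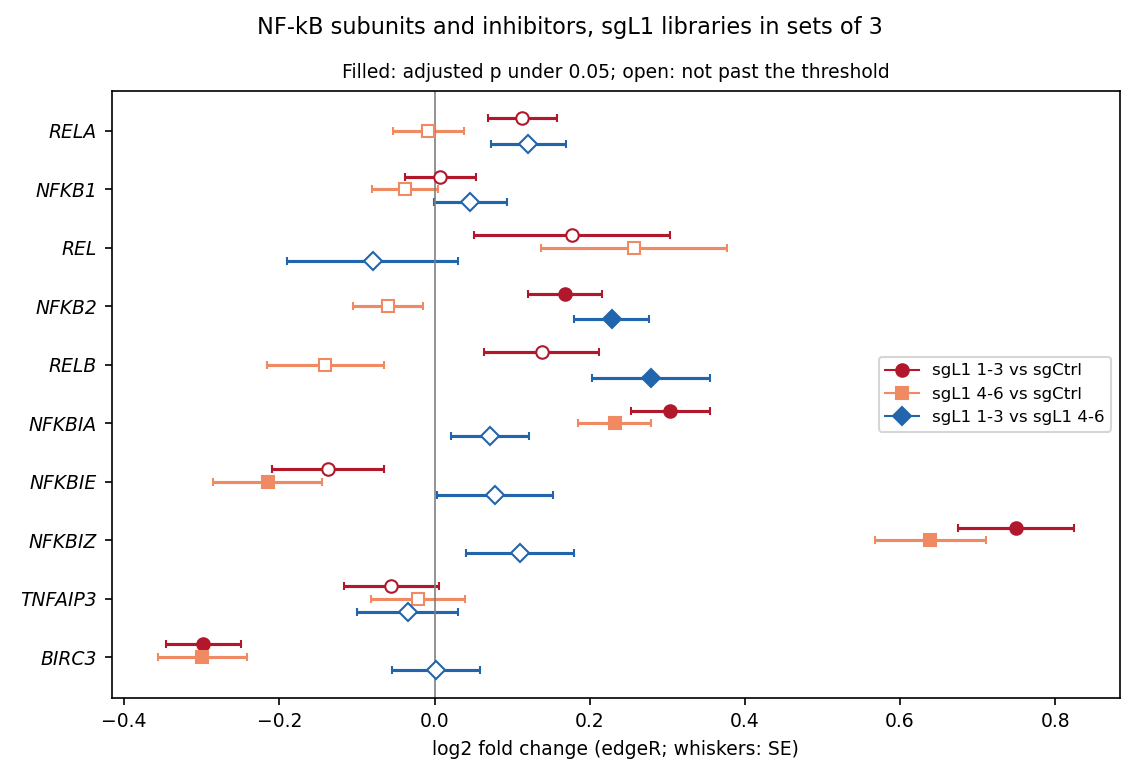
Log2 fold changes of the 10 genes with whiskers for the standard error, for sgL1 1-3 and sgL1 4-6 against sgCtrl and for sgL1 1-3 against sgL1 4-6, where filled marks have an adjusted p under 0.05. NFKBIZ, NFKBIA and BIRC3 are filled for both sets against sgCtrl, and NFKB2 (0.23) and RELB (0.28) for the direct comparison of the sets.

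Taken apart, both sets of sgL1 libraries held the changes of NFKBIZ, NFKBIA and BIRC3. Between the sets NFKB2 and RELB were called in edgeR, and both calls were lost under several alternatives, as given below. The sets share the same 3 sgCtrl libraries, so each is given with its own values. In sgL1 1-3 against sgCtrl, 3 of the 10 genes were higher and 1 lower, where 8.07% of all genes were higher and 7.12% lower. NFKBIZ had a log2 fold change of 0.75, NFKBIA of 0.30 and BIRC3 of -0.30, and the further gene was NFKB2 at 0.17 ± 0.05 (SE, adjusted p = 0.0139). The call of NFKB2 was lost without sgL1 2 (adjusted p = 0.0805) and without sgCtrl 2 (adjusted p = 0.117), and with limma on log2(FPKM + 1) (adjusted p = 0.108). That of BIRC3 was lost with the same limma fit (adjusted p = 0.0523). In sgL1 4-6 against sgCtrl, 2 genes were higher and 2 lower, where 6.73% of all genes were higher and 5.57% lower. NFKBIZ stood at 0.64, NFKBIA at 0.23 and BIRC3 at -0.30, and NFKBIE at -0.22 ± 0.07 (SE, adjusted p = 0.0348), a call lost without sgL1 4, sgL1 5, sgCtrl 1 or sgCtrl 2 and with DESeq2. With limma on log2(FPKM + 1) neither NFKBIE nor BIRC3 (adjusted p = 0.102) was called in sgL1 4-6. REL, at 0.26 ± 0.12 (SE, adjusted p = 0.174), was called without sgCtrl 2 (adjusted p = 0.0459). In sgL1 1-3 every library lay above sgCtrl for 4 of the 10 genes and below it for 2, where 15.4% of all tested genes lay above and 15.3% below. In sgL1 4-6 this held for 3 genes above and 2 below, where 14.2% lay above and 13.0% below.

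Set directly against each other, sgL1 1-3 were higher than sgL1 4-6 in 2 of the 10 genes, NFKB2 and RELB, and lower in 0, where 2.14% of all tested genes were higher and 1.86% lower. At an unadjusted p under 0.05 the number of the 10 genes that were lower was also 0, as it was with DESeq2 and limma. NFKB2 averaged 117 ± 4.55 CPM in sgL1 1-3 and 100.2 ± 1.91 CPM in sgL1 4-6 (SD, n = 3 each), a log2 fold change of 0.23 ± 0.05 (SE, adjusted p = 0.00770 by edgeR's quasi-likelihood test). RELB averaged 35.7 ± 1.58 CPM in sgL1 1-3 and 29.4 ± 1.95 CPM in sgL1 4-6 (SD, n = 3 each), a log2 fold change of 0.28 ± 0.08 (SE, adjusted p = 0.0344 by the same test). RELA was the third gene whose libraries did not overlap, with 116 ± 1.49 CPM in sgL1 1-3 and 106 ± 4.90 CPM in sgL1 4-6 (SD, n = 3 each), but its log2 fold change of 0.12 ± 0.05 (SE) had an adjusted p of 0.142 in edgeR. Of all tested genes, 12.6% had every sgL1 1-3 library above sgL1 4-6 and 11.9% below. The call of NFKB2 was lost without sgL1 2, 4 or 6, and that of RELB without any 1 of sgL1 2 to 6, and both were lost with limma on FPKM. UFL1 moved with this division (log2 fold change of -0.65 in sgL1 1-3 against sgL1 4-6, a call also lost with limma), and its part in the difference was not tested. NFKBIZ, NFKBIA and BIRC3 differed between the 2 sets by 0.11, 0.07 and 0.002 on the log2 scale, with adjusted p of 0.390, 0.440 and 0.991 in edgeR.

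The genes nearest in pattern to the 3 called genes were found by a likeness over the 9 libraries, the root mean square difference of centred log2 CPM, among 11776 genes. The nearest to NFKBIZ were PBXIP1 (0.0795) and KDM5B (0.0796), against 0.34 for the root mean square of the profile of NFKBIZ itself. The nearest to NFKBIA were TAGLN2 (0.0362) and PDIA4 (0.0367), against 0.14 for its own profile, and the nearest to BIRC3 were NEGR1 (0.0385) and EEA1 (0.0452), against 0.16. PBXIP1 averaged 12.5 ± 0.585 CPM in sgL1 and 8.33 ± 0.590 CPM in sgCtrl (SD, n = 6 and n = 3).

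The rest of the pathway was described by 7 gene lists of 85 genes, of which 71 were tested. In sgL1 against sgCtrl 25 of these were higher and 3 lower, where 5.52% of all tested genes were higher and 3.98% lower, and the median log2 fold change was 0.12 beside 0.002 over all tested genes. Most of the calls were among the targets and not among the signalling genes. All 7 lists were chosen with earlier results of these data known, so these counts only describe these libraries.

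Of the other IkB proteins, neither NFKBID nor BCL3, both nuclear like NFKBIZ, passed the test over all sgL1 libraries. NFKBID averaged 7.65 ± 0.544 CPM in sgL1 and 5.82 ± 1.07 CPM in sgCtrl (SD, n = 6 and n = 3), a log2 fold change of 0.39 (adjusted p = 0.0632). By edgeR it was called in sgL1 1-3 against sgCtrl (0.46, adjusted p = 0.0448) but not in sgL1 4-6 (0.33, adjusted p = 0.187). BCL3, which partners p50 and p52, had 0.15 (adjusted p = 0.376), and NFKBIB, the gene of IkB-beta, was too low to test at 0.104 CPM in sgL1 and 0.0423 CPM in sgCtrl. Of 11 IKK and upstream kinases, 1 was higher and 1 lower, with a median of -0.06, counts near the 5.52% higher and 3.98% lower over all tested genes. IKBKE, an IKK-related kinase, averaged 23.2 ± 1.97 CPM in sgL1 and 14.5 ± 2.10 CPM in sgCtrl, a log2 fold change of 0.68 (adjusted p = 1.01e-05). IKBKB, a catalytic subunit of canonical IKK, averaged 29.03 ± 1.30 CPM in sgL1 and 34.1 ± 0.285 CPM in sgCtrl, a log2 fold change of -0.23 (adjusted p = 0.0270). By edgeR IKBKB was called in sgL1 4-6 against sgCtrl (-0.27, adjusted p = 0.00687) but not in sgL1 1-3 (-0.19, adjusted p = 0.0778).

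Of 13 receptor adaptors 0 were higher and 1 lower, with a median of -0.01, again near the 5.52% and 3.98% over all tested genes. The gene lower was IRAK1, a kinase below interleukin-1 and Toll-like receptors, with 247 ± 21.0 CPM in sgL1 and 315 ± 19.3 CPM in sgCtrl (log2 fold change -0.35, adjusted p = 0.000765). Of 10 ubiquitin editors and other brakes 2 were higher and 0 lower, with a median of 0.04, beside the same 5.52% and 3.98%. ZC3H12A, the RNase Regnase-1 that degrades inflammatory mRNAs, had 56.1 ± 4.72 CPM in sgL1 and 24.5 ± 0.720 CPM in sgCtrl, a rise of 2.30-fold (adjusted p = 1.10e-12). TNIP1, a binding partner of A20, had 415 ± 19.7 CPM in sgL1 and 291 ± 11.8 CPM in sgCtrl, a rise of 1.42-fold (adjusted p = 1.04e-09).

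Of 12 receptors 4 were higher and 0 lower, with a median of 0.23, beside 5.52% higher and 3.98% lower over all tested genes. IL1RAP, the shared chain of interleukin-1 family receptors, had 35.2 ± 1.60 CPM in sgL1 and 20.5 ± 0.335 CPM in sgCtrl (log2 fold change 0.78, adjusted p = 6.86e-09). The Toll-like receptors TLR4, TLR6 and TLR2 had log2 fold changes of 0.27, 0.33 and 0.33 (adjusted p = 0.00142, 0.0317 and 0.0318). In sgL1 1-3 against sgCtrl neither TLR2 (adjusted p = 0.202) nor TLR6 (adjusted p = 0.0582) was called. Of the 12 receptors 3 were higher and 0 lower in sgL1 1-3 against sgCtrl, where 8.07% of all tested genes were higher and 7.12% lower. In sgL1 4-6 against sgCtrl 5 receptors were higher and 1 lower, where 6.73% of all tested genes were higher and 5.57% lower. The lower one was TNFRSF1B (log2 fold change -1.21, adjusted p = 0.00146), named after its value was seen. Of 10 ligands only 2 were tested, and TNF, LTA, LTB and CD40LG had 0 counts in all 9 libraries. IL1B averaged 23.5 ± 1.84 CPM in sgL1 1-3 and 45.3 ± 2.75 CPM in sgL1 4-6, against 2.31 ± 0.126 CPM in sgCtrl (SD, n = 3 each). Its log2 fold change over all sgL1 libraries was 3.89 ± 0.47 (SE, adjusted p = 0.00167), while TNFSF12 had 0.41 (adjusted p = 0.0971).

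Of 26 other NF-kB target genes 21 were tested, and 17 were higher and 1 lower, with a median of 0.97, beside 5.52% higher and 3.98% lower over all tested genes. The 4 with the smallest adjusted p were C3, CSF3, PTGS2 and CXCL1, with log2 fold changes of 2.85, 3.61, 2.46 and 1.84. CXCL1, a neutrophil chemokine, had 206 ± 12.8 CPM in sgL1 and 57.5 ± 4.20 CPM in sgCtrl. The lower gene, named after its value was seen, was BCL2L1, which encodes the survival factor BCL-XL, at -0.29 (adjusted p = 4.11e-05). The list was chosen with earlier results of these data known, so its count is a description of these libraries.

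**Figure D4:**
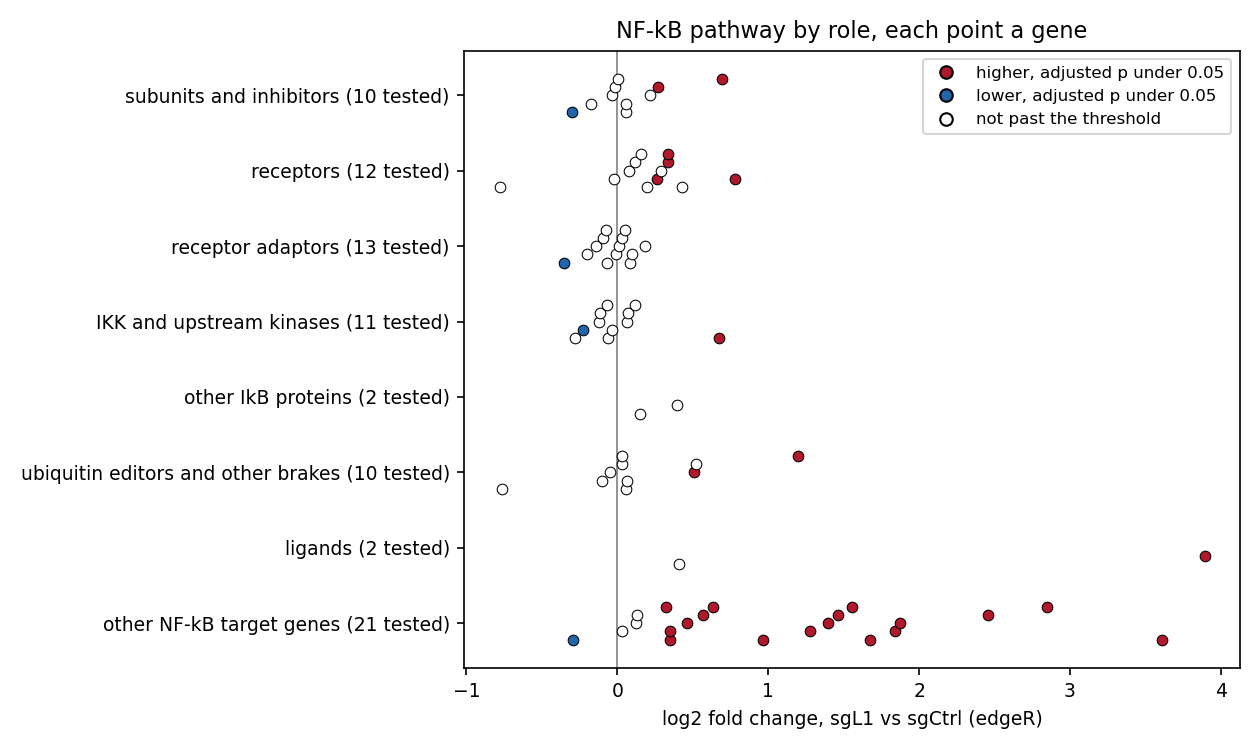
Log2 fold changes of sgL1 against sgCtrl for the tested genes of each role in the pathway, 1 point per gene, where filled points have an adjusted p under 0.05. The median of the target genes is 0.97, that of the kinases -0.06 and that of the adaptors -0.01.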

How the data were processed

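Total RNA of MDA-MB-231 was sequenced in 6 sgL1 and 3 sgCtrl libraries, grouped by the labels' titles. Per the submitters' processing notes, fastp 0.20.1, STAR 2.7.7a, featureCounts 2.0.0 and the hg38 (GRCh38) build were used; neither strand nor annotation release is given in the labels. The authors deposited whole-number counts per gene and FPKM, which divide counts by gene length and library size. Of 59362 rows, 627 without a symbol (0.358% to 0.410% of counts) were left out. Counts were tested with edgeR 4.0.16 (filterByExpr, TMM, robust quasi-likelihood F test) in R 4.3.3, with Benjamini-Hochberg adjustment over all tested genes and a threshold of 0.05, and each of the 4 comparisons was fitted on its own libraries. This kept 15242 genes for sgL1 against sgCtrl, 14812 and 14830 for sgL1 1-3 and 4-6 against sgCtrl, and 14837 for sgL1 1-3 against 4-6. CPM (TMM) compares libraries and FPKM compares genes; a floor of 3 counts was 0.177 to 0.195 CPM. Between libraries of a group counts differed beyond sampling noise (mean chi-square per gene 2.29 to 9.34). Such a check can detect repeat sequencing of 1 library but not separate libraries made from 1 culture. Errors of counting cover counting only.

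Alternatives were DESeq2 1.42.0, limma 3.58.1 on log2(FPKM + 1) and log2(FPKM + 0.1), other scalings and filters, 1 fit of 3 groups, each library left out, and the replicate number as a block. The named genes were all 10 members, UFL1, for each pathway list the up to 4 called genes with the smallest adjusted p (all genes of lists of up to 5), and the 2 genes nearest in profile to each called member. The members and lists were chosen with earlier results of these data known. Promoter sequences are from RefSeq (GRCh38.p14), where 8 of 10 members matched; gene positions are from GENCODE release 29, matched by symbol. Protein sequences were not used here. A marker gene of the leukocyte list is not reported here.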

Additional observations from a re-analysis of the deposited data

Results flagged for a closer look

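NFKB2 and RELB were flagged because the 2 sets of sgL1 libraries, 1-3 and 4-6, differed in the direct test: the log2 fold change of sgL1 1-3 against sgL1 4-6 was 0.23 for NFKB2 (adjusted p = 0.0077) and 0.28 for RELB (adjusted p = 0.0344), both by edgeR's quasi-likelihood test. Only 28 of the named genes were examined for this flag. Among them the same test flagged UFL1 at -0.65 (adjusted p = 0.000406), IRAK1 at 0.19 (adjusted p = 0.0126), TLR4 at -0.19 (adjusted p = 0.0204), IL1B at -0.95 (adjusted p = 7.76e-10) and CXCL1 at -0.16 (adjusted p = 0.0286). IL1B was thus higher than sgCtrl in both sets and lower in sgL1 1-3 than in sgL1 4-6. The calls of NFKB2 and RELB were lost with limma on FPKM and with some single libraries left out. With limma on FPKM the calls of UFL1 and IRAK1 were lost as well. Over the pathway lists, edgeR called 4 of 71 tested genes higher and 5 lower in sgL1 1-3 than in sgL1 4-6. Of all tested genes 2.14% were higher and 1.86% lower.

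CSF3, which encodes the granulocyte growth factor G-CSF, was flagged because sgL1 1 stood apart from the other sgL1 libraries, with 63.5 CPM against 70.29 to 74.34 CPM. Its gap was 0.627 of the group's range, just past Dixon's 95% critical value for 6 samples. It was 1 of 28 genes examined in this way, and chance flags about 1 group in 20.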

How the results depend on the processing

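The rise of NFKBIZ and NFKBIA and the fall of BIRC3 over all 6 sgL1 libraries kept their direction and call under every alternative tried. Several counts of calls moved by over 1.5 times. On log2(FPKM + 1) limma called 553 genes higher and 360 lower in sgL1 against sgCtrl (841 and 606 with edgeR), 488 and 369 in sgL1 1-3 against sgCtrl (1195 and 1054) with 0 of the 10 genes lower, 377 and 267 in sgL1 4-6 against sgCtrl (998 and 826) with 0 of the 10 lower, and 0 and 6 in sgL1 1-3 against 4-6 (317 and 276) with 0 of the 10 higher. On log2(FPKM + 0.1) the 10 genes gave the same 0 lower in sgL1 4-6 and 0 higher between the sets; over all genes 351 were lower in sgL1, 503 and 386 were called in sgL1 1-3, 418 and 294 in sgL1 4-6, and 0 and 10 between the sets. BIRC3 missed the threshold on log2(FPKM + 1) in sgL1 1-3 (adjusted p = 0.0523) and on both scales in sgL1 4-6 (adjusted p = 0.102 and 0.0900). With DESeq2, 1 of the 10 genes was lower in sgL1 4-6 and 1 higher between the sets, where RELB received no adjusted p. One fit of 3 groups gave 1 lower in sgL1 4-6 (NFKBIE at adjusted p = 0.0507) and 426 genes lower between the sets. The cause was not tested.

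With each library left out, genes called higher and lower were 548 to 958 and 352 to 800 in sgL1 against sgCtrl (fewest without sgCtrl 1 and sgCtrl 2), 798 to 1219 and 668 to 1200 in sgL1 1-3 (fewest lower without sgCtrl 2), 707 to 882 and 640 to 779 in sgL1 4-6, and 23 to 616 and 20 to 501 between the sets (fewest without sgL1 4, also fewer by over 1.5 times without sgL1 2, 3 or 6, and most without sgL1 1). Of the 10 genes, 2 to 3 were higher in either set, 1 to 2 lower in sgL1 4-6, and 0 to 2 higher between the sets. Values near 0 changed sign. RELB in sgL1 against sgCtrl was -0.00066 with library size scaling and -0.0014 and -0.0020 with limma, and -0.042 to 0.052 with libraries left out. Likewise NFKB1 gave -0.036 to 0.0079 in sgL1 and -0.026 to 0.039 in sgL1 1-3, RELA -0.045 to 0.026 in sgL1 4-6, and between the sets BIRC3 gave -0.050 to 0.079 and TNFAIP3 -0.075 to 0.0046.

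Replicate numbers 1 to 3 are shared by sgL1 and sgCtrl but do not pair the libraries (correlations of deviations 0.0030, -0.067 and -0.018). Numbers 4 to 6 occur only in sgL1, so with the number as a block the genotype is compared between sgL1 1-3 and sgCtrl alone. With this block 1028 genes were higher and 827 lower; NFKB1 was at 0.0082, and NFKB2 was called at 0.17 (adjusted p = 0.0349), as was UFL1 at -0.93. No paired analysis was possible because numbers are not shared for sgL1 4-6 against sgCtrl or between the sets. Depth limits REL most.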
